A study of Mus musculus with 8 samples.

Results

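The visual cycle and retinol transport genes of the retinal pigment epithelium (RPE) were examined in messenger RNA from mouse retina, as a set of 8 genes named by symbol: Rpe65, Lrat, Rdh5, Rdh10, Ttr, Rbp4, Stra6 and Best1. Of these 8 genes, 7 have a row among the 16109 genes of the count table, and all 7 passed the expression filter. Rbp4 is not analysed here. Mice were of the C57BL/6 strain and 5 days old, with 4 libraries from animals labelled wild type (WT) and 4 from animals labelled C3 KO, a genotype that targets complement component C3. The study addressed gene expression in C3-deficient mice while retinal vessels develop. The labels give neither the kind of C3 allele nor the number of animals behind a library, so p-values measure the spread between these libraries, which may be technical.

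In the visual cycle, light converts the chromophore 11-cis-retinal of the photopigments to its all-trans form, and the RPE turns it back. All-trans-retinol is esterified by LRAT, RPE65 isomerizes the ester to 11-cis-retinol, and the retinol dehydrogenases RDH5 and RDH10 can oxidize that alcohol to 11-cis-retinal. Retinol reaches the RPE in blood bound to RBP4, which travels in complex with transthyretin (TTR), and STRA6 takes it up at the cell membrane. The RPE is a single pigmented layer behind the photoreceptors, is not part of the neural retina, and can stay attached to it in a dissection. In bulk tissue, a change in the number of RPE cells and a change in RNA per cell cannot be told apart.

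The C3 counts went against the labels. C3 stood at 2.59 ± 0.642 CPM (SD, n = 4; counts scaled to a common library total) in libraries labelled WT and at 84.5 ± 3.49 CPM (SD, n = 4) in those labelled C3 KO, so every direction below compares libraries by label, C3 KO relative to WT. Whether the labels are exchanged was not tested, and every sign and every "higher" or "lower" below would turn if they are. Library totals ran from 16503564 to 19608824 reads. The summed level of 4 Y-linked genes was 299.2 to 352.6 CPM in the libraries labelled C3 KO and 1.79 to 20.2 CPM in 3 of the libraries labelled WT. The fourth, WT replicate 3, stood at 303.3 CPM. Xist, which is transcribed from the inactive X chromosome of female cells, stood at 2190 to 2440 CPM in those 3 libraries, at 295 CPM in WT replicate 3 and at 1.48 to 2.65 CPM under the C3 KO label. WT replicate 3 thus held both Xist and Y-linked reads in quantity, and apart from it both moved with the labels. Y-linked reads were also present in WT replicates 2 and 4, at 20.2 and 14.85 CPM, against 1.794 CPM in WT replicate 1. Apart from WT replicate 3, a difference by label thus cannot be told apart from a difference by sex in these libraries.

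Among the 7 measured genes, under the C3 KO label 3 were called higher, 1 was called lower and 3 were not called (edgeR quasi-likelihood test, Benjamini-Hochberg adjusted p below 0.05 over all genes). Ttr rose most, by 2.75-fold, followed by Rdh5 at 1.87-fold and Stra6 at 1.46-fold, while Rdh10 was 1.14-fold lower. The isomerase gene Rpe65, the esterifying enzyme gene Lrat and the channel gene Best1 did not pass. They rest on 36 to 149 reads per label, and the part of depth in the missing calls was not tested. Across all 15850 genes tested, 8.33% were called higher and 5.98% lower. The median log2 fold change was 0.77 over the 7 genes and 0.0044 over all genes tested. The set was proposed with results of these libraries known, so its counts and median are a description.

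**Figure D1:**
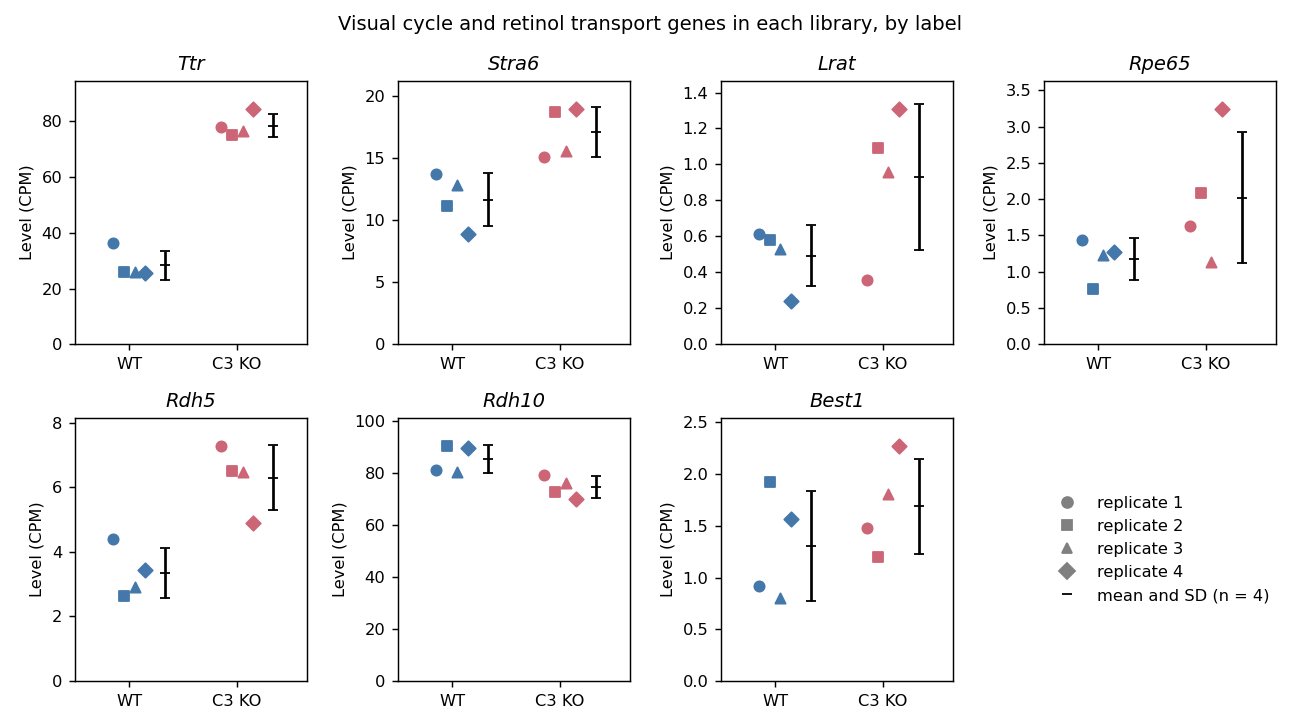
Level of each gene in CPM (vertical axes, each starting at 0) in the 4 libraries of each label. Points are libraries, with the marker giving the replicate number, and the bar beside them is the mean with its SD. The labels do not overlap for Ttr, Stra6, Rdh5 and Rdh10, and they overlap for Lrat, Rpe65 and Best1.

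Per unit of transcript length, Ttr and Rdh10 were the most abundant of the 7 genes. Under the WT label Ttr stood at 23.5 ± 4.23 RPKM (SD, n = 4; reads scaled to gene length and library total) and Rdh10 at 20.6 ± 1.29 RPKM (SD, n = 4), a difference within the spread of Ttr. Stra6 followed at 2.02 ± 0.364 RPKM and Rdh5 at 1.24 ± 0.279 RPKM (SD, n = 4). Rpe65 at 0.802 ± 0.182 RPKM and Best1 at 0.658 ± 0.248 RPKM (SD, n = 4) differed by less than their SDs, and Lrat was lowest at 0.113 ± 0.0318 RPKM (SD, n = 4). Under the C3 KO label the order of the 7 means was the same. Ttr was then at 64.3 ± 3.18 RPKM and Rdh10 at 17.9 ± 1.00 RPKM (SD, n = 4), farther apart than their SDs.

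**Figure D2:**
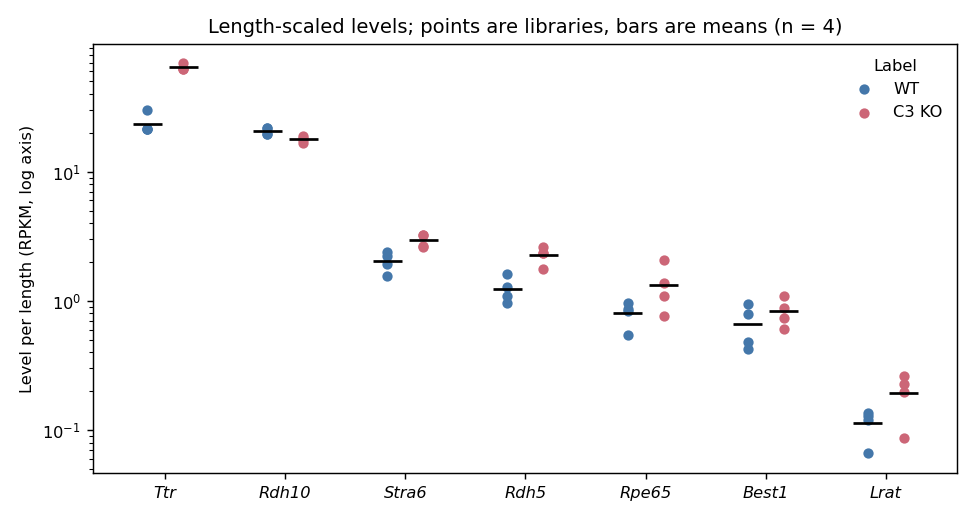
Length-scaled level of each gene (RPKM, log axis) by label, ordered by the mean under the WT label. Points are libraries and horizontal bars are means of 4 libraries; Ttr and Rdh10 stand near each other under the WT label and apart under the C3 KO label.

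The carrier and the receptor of retinol both rose. Ttr encodes transthyretin, the blood carrier of thyroxine and of the RBP4 and retinol complex, which is also made by the choroid plexus and the liver. Its level was 36.2, 26.0, 25.9 and 25.7 CPM in WT replicates 1 to 4 and 77.9, 75.2, 76.5 and 84.4 CPM in C3 KO replicates 1 to 4. The lowest library labelled C3 KO was above the highest labelled WT, and WT replicate 1 stood above the other libraries of its label. The log2 fold change was 1.46 ± 0.09 (SE), with an edgeR adjusted p = 2.85e-08 and a 95% interval of 2.41-fold to 3.15-fold. Counted from the highest signed log2 fold change it was the 43rd of the 15850 genes tested, and with the labels exchanged it would be the 43rd from the lowest. With the mean log2 CPM of the Y-linked genes as a covariate, the log2 fold change of Ttr was 1.72 (edgeR adjusted p = 3.6e-09).

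Stra6 encodes the membrane receptor that takes retinol from RBP4. Its level was 13.7, 11.1, 12.8 and 8.87 CPM in WT replicates 1 to 4 and 15.1, 18.7, 15.6 and 18.9 CPM in C3 KO replicates 1 to 4. The labels did not overlap, but the gap between WT replicate 1 and C3 KO replicate 1 was narrow. Stra6 rose by 0.55 ± 0.12 on the log2 scale (SE, edgeR adjusted p = 0.00454, 95% interval 1.22-fold to 1.74-fold). With the mean log2 CPM of the Y-linked genes as a covariate the value was 0.57 and the call was lost (edgeR adjusted p = 0.0975). That covariate correlated with the label at 0.732, which widens the error of the label difference.

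Rdh5 was the only gene of the enzymatic steps called higher. The estimates for Lrat (0.88) and Rpe65 (0.77) were close to its log2 fold change of 0.91, and the differences between these genes were not tested. Rdh5 encodes the 11-cis-retinol dehydrogenase of the RPE. Its level was 4.41, 2.62, 2.92 and 3.44 CPM in WT replicates 1 to 4 and 7.28, 6.51, 6.49 and 4.89 CPM in C3 KO replicates 1 to 4. Every library labelled C3 KO was above every library labelled WT, with C3 KO replicate 4 closest to them. Its estimate had an SE of 0.18 (log2 scale, edgeR adjusted p = 0.00188, 95% interval 1.44-fold to 2.44-fold). With the Y-linked covariate the log2 fold change of Rdh5 was 1.24 (edgeR adjusted p = 0.0163). In the GENCODE M21 annotation Rdh5 shares 25.6% of its exonic bases with the neighbouring gene Bloc1s1 on the same strand, and the sources used here do not say how shared reads were counted. Bloc1s1 itself averaged 3.62 CPM in libraries labelled WT and 2.41 CPM in those labelled C3 KO, with a log2 fold change of -0.58 (edgeR adjusted p = 0.109), the opposite sign to Rdh5.

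Rdh10 went the other way. It encodes a retinol dehydrogenase that acts on all-trans-retinol and on 11-cis-retinol, and it serves retinoic acid synthesis in many embryonic tissues as well as the visual cycle. Its level was 81.1, 90.3, 80.4 and 89.5 CPM in WT replicates 1 to 4 and 79.3, 72.8, 76.2 and 69.8 CPM in C3 KO replicates 1 to 4. The labels did not overlap, with WT replicate 3 and C3 KO replicate 1 nearly level. On the log2 scale the difference was -0.19 ± 0.06 (SE), at an edgeR adjusted p = 0.0271. The call was lost without WT replicate 2 or 4, at edgeR adjusted p-values of 0.0755 and 0.0656, or without C3 KO replicate 2 or 4, at 0.0527 and 0.0952. It was also lost on log2(RPKM + 1), with a limma adjusted p = 0.0531, and with the Y-linked covariate, at -0.18 with an edgeR adjusted p = 0.295.

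Rpe65, the isomerase that defines the RPE visual cycle, was covered by 13 to 57 reads in a library. Its level was 1.44, 0.757, 1.22 and 1.27 CPM in WT replicates 1 to 4 and 1.63, 2.08, 1.13 and 3.24 CPM in C3 KO replicates 1 to 4. C3 KO replicate 3 lay within the WT range and replicate 4 was the highest of all. The log2 fold change was 0.77 ± 0.32 (SE, edgeR adjusted p = 0.111), and its 95% interval ran from 1.08-fold to 2.71-fold. That interval is not adjusted for the number of genes tested. It includes the 1.87-fold of Rdh5 and the 1.46-fold of Stra6 and overlaps the interval of Ttr.

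Lrat, the gene of the enzyme that esterifies retinol, had 4 to 23 reads in a library. It stood at 0.615, 0.582, 0.532 and 0.241 CPM in WT replicates 1 to 4 and at 0.357, 1.09, 0.959 and 1.31 CPM in C3 KO replicates 1 to 4. Replicates 2 to 4 under the C3 KO label were above every library labelled WT, and C3 KO replicate 1 lay among the latter. On the log2 scale the difference for Lrat was 0.88 ± 0.43 (SE, edgeR adjusted p = 0.176, 95% interval 0.997-fold to 3.40-fold).

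Best1 encodes bestrophin 1, a chloride channel of the RPE basolateral membrane that takes no part in retinoid chemistry. Its level was 0.923, 1.92, 0.797 and 1.57 CPM in WT replicates 1 to 4 and 1.48, 1.20, 1.81 and 2.27 CPM in C3 KO replicates 1 to 4. The labels overlapped over most of their range. For Best1 the log2 fold change was 0.38 ± 0.32 (SE, edgeR adjusted p = 0.471, 95% interval 0.824-fold to 2.06-fold), so a 2-fold rise and no change both lie within the interval.

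The promoters of the genes with few reads and of a gene that rose are shown because RPE genes are known to be controlled by MITF and OTX2, and 5 of the 7 measured genes have promoter windows in the RefSeq table (build GRCm38.p6, 250 bases before to 50 after the start site). The motifs CATGTG (the M-box core of MITF), TAATCC (an OTX2 type site) and CACGTG (a palindromic E-box) were searched on both strands, and no match overlapped another. CATGTG occurs in 14.2% of all 32851 windows, TAATCC in 7.06% and CACGTG in 7.15%. Rpe65 (chr3:159598931-159599230, plus strand) holds CATGTG at -239 and TAATCC at -42 from the start site, both on the reverse strand. Best1 (chr19:10001584-10001883, minus strand) holds TAATCC at -227, and Rdh5 (chr10:128919248-128919547, minus strand) holds none of the 3 motifs. Capitals mark the matches, and sequences run 5′ to 3′ on the gene's strand.
Rpe65: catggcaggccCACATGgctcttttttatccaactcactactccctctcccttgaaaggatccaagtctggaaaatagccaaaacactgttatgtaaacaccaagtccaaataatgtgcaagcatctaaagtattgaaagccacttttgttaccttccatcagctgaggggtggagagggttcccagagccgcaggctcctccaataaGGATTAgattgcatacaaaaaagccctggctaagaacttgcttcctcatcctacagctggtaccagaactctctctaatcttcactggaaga
Best1: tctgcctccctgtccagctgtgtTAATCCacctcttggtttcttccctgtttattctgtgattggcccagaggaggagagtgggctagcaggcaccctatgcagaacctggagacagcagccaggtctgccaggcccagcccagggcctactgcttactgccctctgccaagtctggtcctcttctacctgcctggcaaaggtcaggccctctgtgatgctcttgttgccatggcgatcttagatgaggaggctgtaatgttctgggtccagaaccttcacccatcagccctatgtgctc
Rdh5: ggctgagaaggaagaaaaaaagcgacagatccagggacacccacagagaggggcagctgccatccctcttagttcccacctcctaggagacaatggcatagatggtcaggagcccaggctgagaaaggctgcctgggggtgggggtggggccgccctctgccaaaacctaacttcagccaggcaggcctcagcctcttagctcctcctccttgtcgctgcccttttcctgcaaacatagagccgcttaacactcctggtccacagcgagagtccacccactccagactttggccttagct

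The single window of Lrat, which also has few reads, and the 4 windows of Stra6 held none of the 3 motifs either and are not printed. Each match is a description of letters in a window, and no binding was measured.

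Across libraries the genes did not keep one order. Under the WT label, replicate 1 was highest for Ttr, Stra6, Rdh5, Rpe65 and Lrat, but not for Rdh10 or Best1. Under the C3 KO label, replicate 4 was highest for Ttr, Stra6, Rpe65, Lrat and Best1 and lowest for Rdh5 and Rdh10. The ratio of Ttr to Stra6 CPM was 2.02 to 2.89 under the WT label and 4.03 to 5.17 under the C3 KO label, without overlap. The ratio of Ttr to Rdh5 CPM was 7.46 to 9.91 and 10.7 to 17.3, again without overlap. The ratio of Rdh5 to Rpe65 CPM was 2.39 to 3.46 and 1.51 to 5.75, with overlap. Rpe65 had 13 to 57 reads in a library, so counting error enters this ratio and the library order of genes with few reads.

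All 4 libraries labelled C3 KO were above all those labelled WT for 3 of the 7 genes, and below them for 1. Over all genes tested, 9.65% were wholly above and 7.72% wholly below.

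Retinoid genes outside this set were called in both directions. The list of 30 genes tied to retinoid handling holds binding proteins, enzymes, opsins, a transporter and receptors. Of these, 25 were tested, of which 2 were called higher and 4 lower, with a median log2 fold change of -0.13. The shares over all genes tested were 8.33% higher and 5.98% lower. Rgr, an opsin of the RPE and Mueller glia that helps regenerate chromophore in light, was at 16.6, 11.3, 12.1 and 10.9 CPM in WT replicates 1 to 4 and at 26.0, 30.2, 28.0 and 30.2 CPM in C3 KO replicates 1 to 4. It rose 2.24-fold, with an edgeR adjusted p = 6.69e-07. Like Ttr, it was highest in replicate 1 under the WT label. Degs1, a desaturase proposed to isomerize retinol in cone-rich retinas, was called at 1.17-fold higher (edgeR adjusted p = 0.0441). When each library was dropped in turn, that call held only without WT replicate 1, and adjusted p reached 0.162 in the other 7 fits, while its log2 fold change was 0.17 to 0.30 over all 8.

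The genes called lower included enzymes of photoreceptors and of retinoic acid metabolism. Rdh12, which reduces all-trans-retinal in photoreceptor inner segments, fell 1.26-fold, from 90.6 ± 9.13 CPM to 72.2 ± 7.18 CPM (SD, n = 4), with an edgeR adjusted p = 0.00731. Aldh1a1, which oxidizes retinal to retinoic acid in the dorsal retina, was 1.62-fold lower (edgeR adjusted p = 0.0189). Cyp26a1, which degrades retinoic acid, was 1.67-fold lower (edgeR adjusted p = 0.0149), and the lipoprotein receptor gene Scarb1 was 1.11-fold lower (edgeR adjusted p = 0.0484). Aldh1a1 lost its call without WT replicate 2 or 4 or C3 KO replicate 3 or 4 (edgeR adjusted p-values 0.0712, 0.0641, 0.0613 and 0.0549), with log2 fold changes of -0.71 to -0.67 there against -0.70 with all libraries. Cyp26a1 lost its call without WT replicate 4 (edgeR adjusted p = 0.0574), at -0.54 against -0.74. Scarb1 kept it only without WT replicate 4 or C3 KO replicate 2, with adjusted p-values up to 0.12 in the other 6 fits and log2 fold changes of -0.20 to -0.13 over all 8. With the Y-linked covariate, Rgr was the only one of these 6 genes still called (edgeR adjusted p = 1.94e-05). In that fit the log2 fold changes were 0.32 for Degs1, -0.77 for Aldh1a1 and -0.77 for Cyp26a1, each farther from 0 than without the covariate, and -0.24 for Rdh12 and -0.12 for Scarb1, each nearer to 0 than the -0.33 and -0.15 without it.

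Among the genes not called, those with the smallest p included several retinoid carriers. Rlbp1, the 11-cis-retinal binding protein of RPE and Mueller glia, stood at 206.2 ± 31.8 and 174.7 ± 6.87 CPM (SD, n = 4) under the WT and C3 KO labels. Rbp3, the carrier that photoreceptors secrete into the space toward the RPE, stood at 2566 ± 127 and 2206 ± 341 CPM (SD, n = 4). Rrh, the RPE opsin peropsin, stood at 22.9 ± 1.38 and 18.9 ± 3.07 CPM, Rdh14 at 35.0 ± 0.427 and 31.2 ± 1.82 CPM and the retinoic acid carrier Crabp1 at 88.7 ± 7.78 and 97.7 ± 6.64 CPM (SD, n = 4). Their edgeR adjusted p-values lay between 0.0686 and 0.142.

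**Figure D3:**
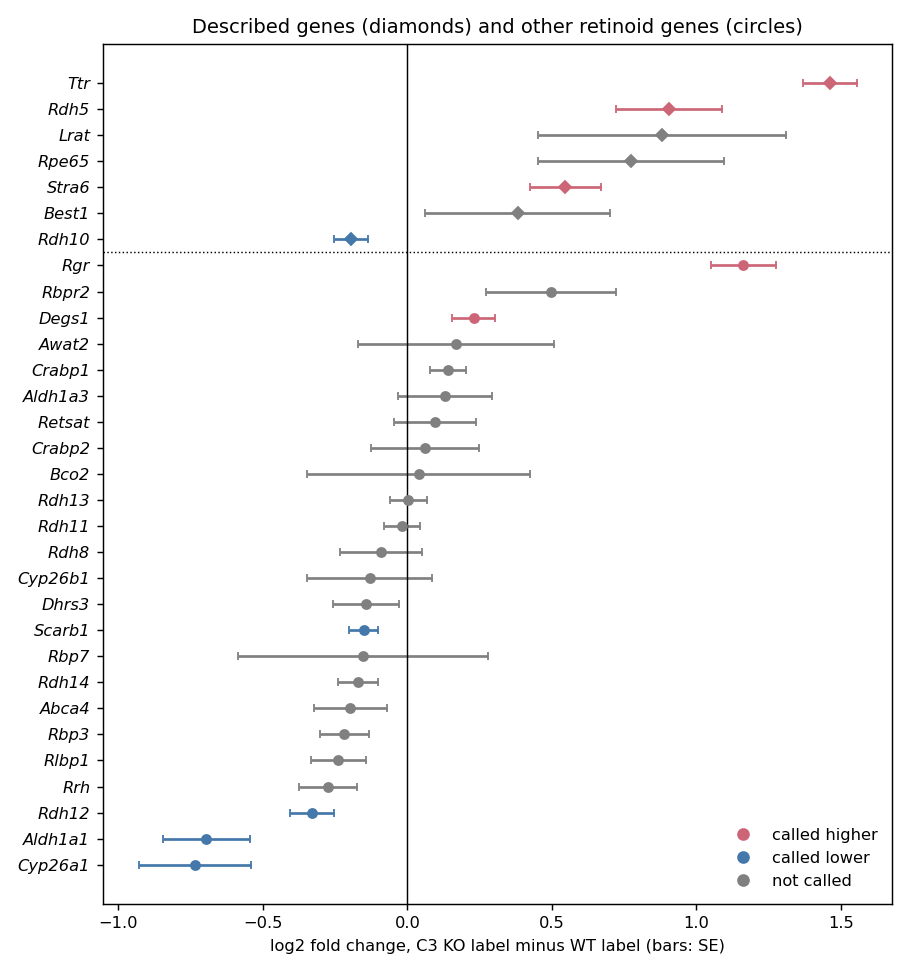
Log2 fold change of the C3 KO label relative to the WT label with its SE for the 7 measured genes (diamonds, above the dotted line) and 24 other retinoid genes (circles). Colour gives the edgeR call; 6 of the 7 genes lie right of 0, whereas 14 of the 24 others shown lie left of it.

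Most genes of a list of other RPE genes rose as well. Of 21 listed RPE and pigment genes 20 were tested, and 15 were called higher and 0 lower, with a median log2 fold change of 0.90. Without WT replicate 3 the count called higher was 16, in an unplanned fit, and no other library was left out for this count. Their summed level without Otx2, which photoreceptors and bipolar cells also express, was 316.7 to 414.9 CPM in libraries labelled WT and 538.4 to 575.9 CPM in those labelled C3 KO. That sum mostly reflects its most abundant genes, and expression of the other listed genes outside the RPE was not tested. The membrane protein gene Mfrp had a log2 fold change of 1.77 and the melanin synthesis gene Dct one of 1.11 (edgeR adjusted p = 1.49e-07 and 3.18e-06). The pigment genes Tyr, at 1.49, and Pmel, at 1.28, had log2 fold changes near the 1.46 of Ttr. The list score, the mean of log2 CPM relative to the WT mean, was highest in replicate 1 under the WT label (0.27), as for Ttr. Under the C3 KO label it ran from 0.89 to 0.99. The RPE genes Rgr, Rrh and Rlbp1 were counted with the retinoid list instead. Their log2 fold changes were 1.16, -0.28 and -0.24, and of them only Rgr was called.

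Markers of other tissues that make TTR, RBP4 or retinoid enzymes were measured beside these genes. Of 10 measured choroid plexus markers 4 were called higher and 0 lower, at a summed level without Otx2 of 41.5 to 50.3 CPM (WT label) and 59.8 to 64.9 CPM (C3 KO label). The 4 were Tmem72, Clic6, Cldn2 and Slc4a5, with log2 fold changes of 1.75, 1.56, 1.33 and 0.47. The abundant marker Kcne2 had -0.13 and was not called. The score of the list was -0.13 to 0.14 under the WT label and 0.51 to 0.67 under the C3 KO label. Of 11 listed liver genes Apoa2 was analysed, at 1.15 ± 0.495 and 1.39 ± 0.386 CPM (SD, n = 4) under the WT and C3 KO labels, and the other liver genes and the 7 listed adipocyte genes are not analysed here. Of 8 genes listed for fibroblasts and sclera 5 were called higher, among them Col1a2 and Pdgfra with log2 fold changes of 1.02 and 0.41. The summed level of the 8 was 158.7 to 200.6 CPM (WT label) and 213.3 to 247.8 CPM (C3 KO label). Most of that sum was Pdgfra alone, at means of 161.2 and 214 CPM under the WT and C3 KO labels, so it says little of the other genes. Expression of Pdgfra outside fibroblasts and sclera, as in other cells of the retina, was not tested. The part of these cells in the values of Ttr, Rdh5 and Stra6 was not tested.

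Markers of Mueller glia and photoreceptors, retinal cells that share retinoid genes with the RPE, were called lower where they were called at all. Markers of red blood cells and lens are given beside them. Of 10 Mueller glia markers 2 were called lower (Dkk3 at -0.34 and Sox9 at -0.45 on the log2 scale) and 0 higher, and their summed level was 1379 to 1726 CPM (WT label) and 1367 to 1410 CPM (C3 KO label). Of 12 photoreceptor genes 4 were called lower and 0 higher, with a summed level of 7680 to 8738 and 6569 to 8069 CPM. For 0 of the 12 were all libraries labelled C3 KO below all those labelled WT, and 3 had a positive log2 fold change. The rod transducin gene Gnat1 fell by 0.40 on the log2 scale. All 5 red blood cell genes with a row were called lower, with a median of -1.11 and a summed level of 28.5 to 51.2 and 18.1 to 23.2 CPM. Of 5 lens genes tested 1 was lower, the crystallin gene Cryba1 at -1.51, and the summed level of all 6 with a row was 8.97 to 13.9 and 10.3 to 12.7 CPM. The part of these cells in the value of Rdh10 was not tested.

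**Figure D4:**
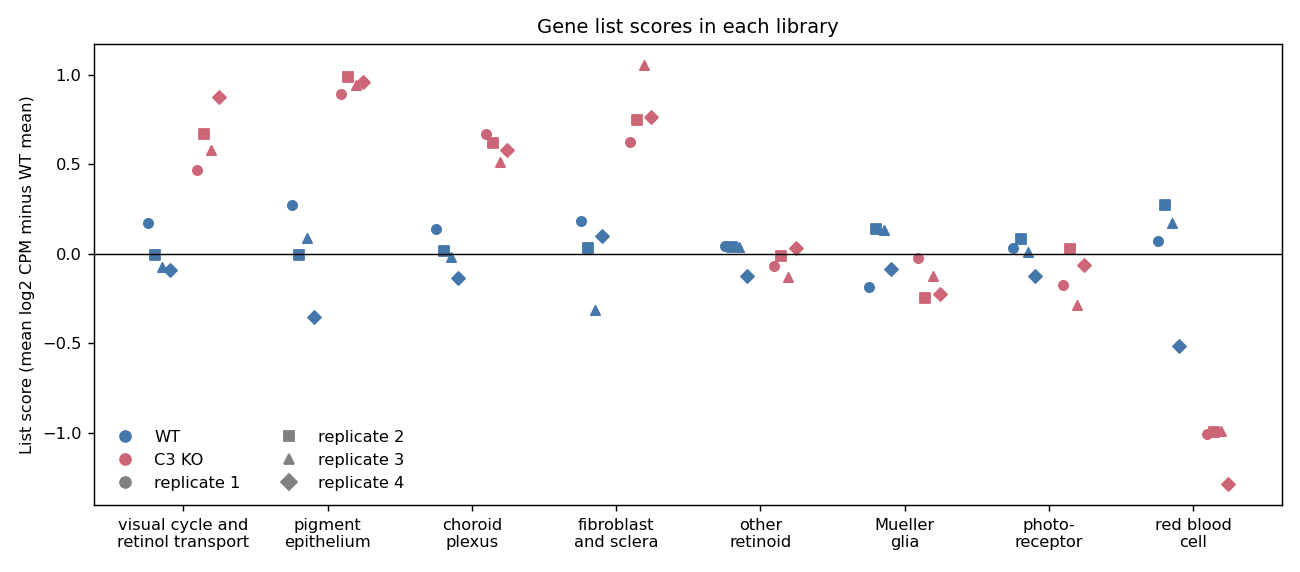
Score of each gene list in each library (mean log2 CPM of its genes minus their mean under the WT label). Points are libraries, colour the label and marker the replicate; the visual cycle, pigment epithelium, choroid plexus and fibroblast scores are higher in all libraries labelled C3 KO, the red blood cell score is lower, and the others overlap.

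The genes outside these lists whose profile over the 8 libraries lay nearest to the mean profile of the 6 measured genes averaging at least 1 CPM were Slc9a5, Aim1, Kcnt1, 4732491K20Rik, Tdrd9 and Dhtkd1. Their root mean square distance from that profile was 0.0728 to 0.0964 on the log2 scale, out of 14921 candidate genes. The members' own distances ran from 0.194 for Stra6 to 0.605 for Rdh10, so the mean profile described Stra6 best and neither Ttr nor Rdh10 closely. Slc9a5, a sodium and proton exchanger, stood at 21.7 ± 2.22 and 32.8 ± 3.17 CPM, and the potassium channel gene Kcnt1 at 12.5 ± 1.40 and 20.4 ± 1.02 CPM (SD, n = 4).

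**Figure D5:**
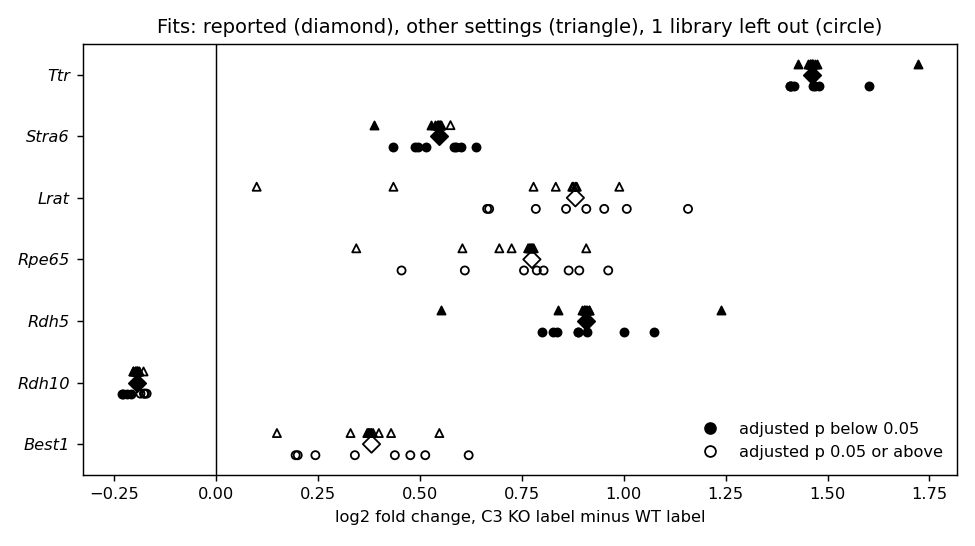
Log2 fold change of each gene under the reported fit (diamonds), other settings (triangles) and fits without 1 library (circles); filled symbols have an adjusted p below 0.05. Ttr and Rdh5 are filled in every fit, Stra6 in all but 1, Rdh10 in some, and Rpe65, Lrat and Best1 in none.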

How the data were processed

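Raw gene counts, deposited as whole numbers, came from STAR and HTSeq with the builds mm9 and NCBIM37, per the submitters' processing notes. The authors also deposited log2 RPKM values. These equal log2 of the count plus about 2 reads, up to gene and library constants (largest deviation 0.0133), which raises the RPKM of genes with few reads. Lrat is raised by up to 45.1% in a library, Rpe65 and Best1 by up to 14.5% and the other measured genes by up to 4.18%. Without the added reads the order of the 7 means was the same under both labels. RPKM was used for levels between genes and as an alternative. Poly(A) RNA went into directional libraries per the labels' protocols; the sources used here do not say whether strand was used in counting.

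The test was run in edgeR 4.0.16 under R 4.3.3 (filterByExpr, 15850 genes kept and 259 left out, TMM, robust quasi-likelihood test, C3 KO against WT, no covariates). Calls had a Benjamini-Hochberg adjusted p below 0.05 over all genes. The procedure was tested on simulated data. CPM used TMM library sizes; one read is 0.0509 to 0.0603 CPM. List scores used a prior count of 2. SEs come from the fold change and its F statistic. Intervals are at 95%. No libraries agreed within sampling noise (chi-square per degree of freedom at least 3.70 between libraries of one label).

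The genes and lists were chosen with earlier results of these data known. Named were all 7 measured genes, C3, called genes of the retinoid list and the 6 with the smallest p not called, up to 3 genes of each other list by level and 3 by p, and the 6 nearest profiles. Cldn2 was named after its value was seen, and Bloc1s1 because it shares exonic bases with Rdh5. Values of 2 genes under this rule are not reported here; counts and summed levels include them. One list gene, Rbpr2, was matched by its older symbol. Alternatives were RLE and upper-quartile scaling, DESeq2 1.42.0, limma-voom (limma 3.58.1), non-robust dispersion, other filters, limma on log2(RPKM + 1) and log2(RPKM + 0.1), a Y-linked covariate, a replicate block and leaving out each library.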

Additional observations from a re-analysis of the deposited data

Results flagged for a closer look

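Among 34 sets of 4 libraries checked for a value far from the other libraries of its label, 3 stood out, and chance alone would mark about 1 in 20. Ttr in WT replicate 1 stood at 36.2 CPM, against 25.7 to 26.0 CPM in the other libraries labelled WT. The score of the other retinoid genes was -0.12 in WT replicate 4, against 0.04 in each of the other libraries of that label. The red blood cell score was -1.29 in C3 KO replicate 4, against -1.01 to -0.99 in the other libraries labelled C3 KO.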

How the results depend on the processing

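Ttr and Rdh5 kept their call in all 19 alternative fits, and Rpe65 and Best1 had positive values without a call in all 19. Lrat had no call in 17 and gave no value with DESeq2, which left its adjusted p undefined, or with a filter of 1 CPM in 4 libraries. Stra6 lost its call only with the Y-linked covariate (log2 fold change 0.57). Rdh10 lost it in 7 fits, at -0.19 on log2(RPKM + 1), -0.20 on log2(RPKM + 0.1) and -0.18 with the Y-linked covariate, each leaving 0 genes of the set called lower. Leaving out 1 library gave log2 fold changes of 1.41 to 1.60 for Ttr, 0.80 to 1.07 for Rdh5, 0.43 to 0.64 for Stra6, -0.23 to -0.17 for Rdh10, 0.45 to 0.96 for Rpe65, 0.66 to 1.16 for Lrat and 0.19 to 0.62 for Best1. In those fits 3 genes of the set were called higher and 0 to 1 lower, 1 to 2 other retinoid genes were higher and 2 to 7 lower, and 761 to 1516 of all genes were higher and 544 to 1027 lower. The libraries that moved the counts over all genes by more than 1.5 times were WT replicate 2 (861 higher), C3 KO replicate 3 (848 higher) and C3 KO replicate 4 (761 higher, 544 lower). Of all genes 836 were higher on log2(RPKM + 1), 824 on log2(RPKM + 0.1) and 349 with the Y-linked covariate, which left 181 lower. Other retinoid genes called higher numbered 1 without an expression filter, on both RPKM scales and with the Y-linked covariate, which left 0 lower. The cause was not tested.

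With the replicate number as a block, 3 genes of the set were called higher and 1 lower, Ttr at 1.47 and Rdh10 at -0.19, and over all genes 1415 higher and 985 lower. Same-numbered libraries were correlated in their deviations at -0.088, 0.106, 0.028 and -0.056. Of the 4 libraries labelled WT, 1 correlated best with its own number. With 4 pairs these values cannot settle whether same-numbered libraries share more than a number. Lrat, Rpe65 and Best1 rest on 36 to 149 reads per label, and whether depth limits their calls was not tested.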
